A study of Mus musculus with 6 samples.

Results

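Transcript levels in long-term haematopoietic stem cells (LT-HSC) that carried Flt3-ITD were compared across the genome with those of MxCRE reference LT-HSC, with 2 libraries on each side. The comparison covers every gene that reached at least 1 normalised CPM (reads scaled to an effective library size) in at least 2 of these 4 libraries, which are 12343 of the 17997 genes in the table. Genes on lists of red cell, cell cycle and stem cell programmes are counted but not described, so that the account falls on genes outside these lists. The lists are not complete, and genes known from red cells that are not on them, such as Pklr and Smim1, remain in the account.

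The reference group, Mx, has the genotype MxCRE, a Cre recombinase under the interferon-inducible Mx promoter, and the Flt3ITD group has the genotype Flt3-ITD. Whether the Flt3ITD animals also carried MxCRE is not given in the sources used here. Another group, NPMc_Flt3ITD, whose genotype is NPMc+/FLt3-ITD, entered only the estimate of the spread between replicates. All animals were C57BL/6 mice of 8 to 11 weeks, the cells were sorted from crushed limb bones and sternum, and libraries were made from the small amounts of RNA by a SMARTseq protocol on polyadenylated RNA. The series describes the replicates as biological.

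Flt3 is a receptor tyrosine kinase of early blood progenitors, and an internal tandem duplication (ITD) in its juxtamembrane region makes it signal without its ligand. The mutation is frequent in acute myeloid leukaemia, where it drives growth and survival signalling, and in mice it expands myeloid cells and depletes LT-HSC. Stem cells in adult bone marrow are mostly at rest, with low rates of protein synthesis and little mitochondrial activity, and they hold a set of surface receptors and adhesion molecules that tie them to their niche.

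The recovered depth was 27088450 and 19287765 reads in Mx replicates 1 and 2 and 15618802 and 33346210 reads in Flt3ITD replicates 1 and 2. All 10 LT-HSC markers checked were detected in each library, with a summed level of 1938 and 1962 CPM in Mx and 982 and 1061 CPM in Flt3ITD. None of the 10 had a log2 fold change above 0, and 5 passed as lower in Flt3ITD, 50% against 2.50% of all genes. The marker level thus differs between the groups. Levels of other marrow cells' markers also differed between libraries. The 10 neutrophil markers summed to 234 and 119 CPM in Mx and to 47.3 and 898 CPM in Flt3ITD, and none of them passed. The 10 B cell markers summed to 87.6 and 386 CPM in Mx and to 19.8 and 35.1 CPM in Flt3ITD. The 8 mast cell and basophil markers summed to 20.4 and 21.4 CPM and to 71.6 and 63.5 CPM. Cpa3 made up most of the latter sums, at 15.5 and 15.5 CPM in Mx and at 52.1 and 42.4 CPM in Flt3ITD. Cpa3 and Mcpt8 passed as higher. Of the 4 other tested markers of the list, 3 lay above 0 and Fcer1a below 0. The 10 T and NK cell markers summed to 86.8 and 119 CPM in Mx and to 252 and 186 CPM in Flt3ITD, with Nkg7 their 1 call. Nkg7 made up most of these sums, at 76.3 and 90.3 CPM in Mx and at 250 and 179 CPM in Flt3ITD. The 6 other tested markers of the list had log2 fold changes below 0 and did not pass. In the macrophage and dendritic cell list 7 of 9 markers were at 0 in Flt3ITD replicate 1, and the list summed to between 7.09 and 28.0 CPM over the 4 libraries. Xist was at 1007 and 1038 CPM in Mx and at 37.2 and 547 CPM in Flt3ITD, so the sex of the animals and the genotype cannot be told apart for sex-linked genes. Flt3 itself was at 43.6 and 38.3 CPM in Mx and at 32.5 and 39.8 CPM in Flt3ITD, which says nothing of the allele that was transcribed.

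The genes higher in Flt3ITD included 7 of 35 genes of mitochondrial import and 5 of 58 of the nuclear pore and transport, 4 of which act in the Ran cycle. The genes lower in Flt3ITD included 4 of 63 on a cyclic AMP and CREB family list and 4 of 32 Wnt genes. They also included 6 of 74 junction and tetraspanin genes, and 2 of the last list rose. Of the 12343 genes 576, or 4.67%, changed, with 268 higher (2.17%) and 308 lower (2.50%), by limma on log2(CPM + 1) with a Benjamini-Hochberg adjusted p under 0.05, and 2980 (24.1%) had an unadjusted p under 0.05. Of the 576, 489 lie outside the red cell, cell cycle and stem cell lists, 205 of them higher and 284 lower. The changes were larger among the falls, with a median log2 fold change of -1.58 against 1.24 among the rises, and 83 falls but 52 rises exceeded 2 on that scale. The genes that rose were also more abundant, with a median level of 61.2 CPM against 29.6 CPM for those that fell and 26.8 CPM for all 12343. In bulk samples fewer cells of a type and less RNA per cell cannot be told apart, here and for every gene below.

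All 576 genes had Mx and Flt3ITD libraries that did not overlap, as had 54.3% of the 12343. With any 1 of the 4 Mx and Flt3ITD libraries left out of the fit, which leaves 1 library in its group, most of the 576 no longer passed. The quasi-likelihood test of edgeR, run on the recovered reads, called 301 genes, 2.44% of those described, of which 300 were among the 576.

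**Figure D1:**
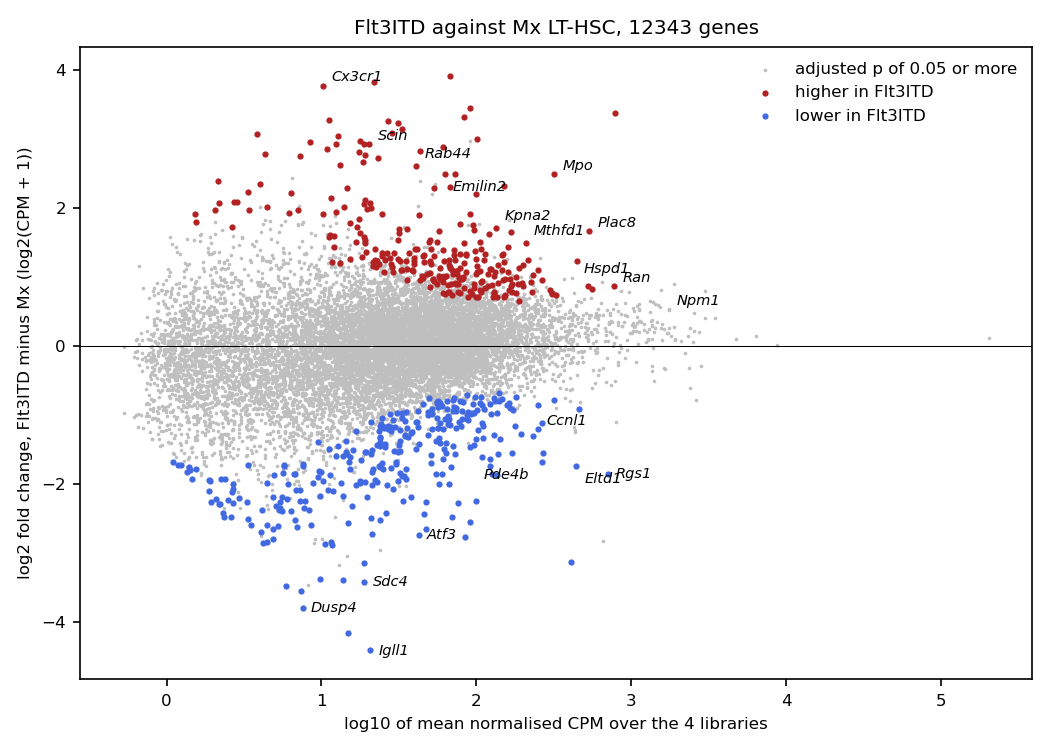
Each point is 1 of 12343 genes, with the log10 of its mean normalised CPM over the 4 libraries on the horizontal axis and its log2 fold change of Flt3ITD over Mx on the vertical axis. The 268 genes that rose are red and the 308 that fell are blue, and the falls reach lower abundance than the rises.

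Genes of protein import into mitochondria had the highest share of rises among the 55 lists described. These lists were chosen with earlier results of these data known, so the ranking is no test. The red cell list, not among them, had 30 rises among 60 genes, 50%. Of 35 mitochondrial import genes 7 rose and none fell, 20.0% against 2.17% of all genes, and the median log2 fold change of the list was 0.62 against 0.01 over all 12343. Hspd1, the mitochondrial chaperonin that folds imported proteins, was at 409 and 395 CPM in Mx and at 693 and 736 CPM in Flt3ITD (log2 fold change 0.83, SE 0.18, adjusted p = 0.0401). Both Flt3ITD libraries lay well above both Mx libraries. Tomm40, the pore of the outer membrane, was at 77.8 and 48.0 CPM in Mx and at 149 and 129 CPM in Flt3ITD (1.17, SE 0.24, adjusted p = 0.0367). Timm23, the channel of the inner membrane, was at 124 and 113 CPM and at 218 and 225 CPM (0.90, SE 0.16, adjusted p = 0.0267). Timm13 and Timm8a1, which partner as chaperones of the intermembrane space, rose by 1.20 and 1.0 on the log2 scale, from 53.8 and 46.1 to 101 and 133 CPM and from 57.6 and 51.2 to 108 and 112 CPM. The import chaperone gene Timm10 and the outer membrane gene Tomm5 complete the 7. Among the 28 that did not pass, 26 lay above 0, up to 1.28 for Hspe1, the partner of Hspd1, which was at 121 and 161 CPM in Mx and at 222 and 519 CPM in Flt3ITD (adjusted p = 0.0974). Of the 7 genes Timm13 and Timm23 also passed edgeR's test.

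The tricarboxylic acid cycle genes that changed also rose. Of 31 such genes 3 rose and none fell, 9.68% against 2.17% of all genes, with a list median of 0.29. Mdh2, the mitochondrial malate dehydrogenase, was at 235 and 222 CPM in Mx and at 404 and 368 CPM in Flt3ITD (log2 fold change 0.75, SE 0.17, adjusted p = 0.046). The succinate dehydrogenase subunits Sdhb and Sdhd rose by 0.77 and 0.66, while the catalytic subunit gene Sdha, at 369 and 391 CPM in Mx and 469 and 336 CPM in Flt3ITD, overlapped between the groups (adjusted p = 0.883). Atpif1, an inhibitor of the mitochondrial ATP synthase, was at 231 and 284 CPM and at 455 and 804 CPM and is among the 10 most abundant genes that rose (1.24, SE 0.28, adjusted p = 0.046). None of these 4 rises passed edgeR's test, where adjusted p lay between 0.0622 and 0.0774.

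The cycle that drives traffic through nuclear pores rose at several of its steps. Ran is the small GTPase whose loading with GTP in the nucleus gives transport its direction, Rcc1 is its exchange factor, and Rangap1 and Ranbp1 act in its hydrolysis in the cytoplasm. Ran was at 540 and 558 CPM in Mx and at 917 and 1102 CPM in Flt3ITD (log2 fold change 0.87, SE 0.20, adjusted p = 0.0472), the most abundant of the named rises. Rcc1 was at 63.0 and 44.4 CPM in Mx and at 109 and 100 CPM in Flt3ITD (0.97, SE 0.21, adjusted p = 0.0433). Rangap1 rose by 0.79 and Ranbp1 by 0.92. The cargo adaptor gene Kpna2, or importin alpha 1, rose most, from 60.5 and 60.3 CPM to 258 and 156 CPM (1.71, SE 0.25, adjusted p = 0.0144). These are the 5 rises among 58 nuclear pore and transport genes, 8.62% against 2.17% of all genes. None of the 58 fell and their median was 0.25. The export receptor gene Xpo1, at 109 and 135 CPM in Mx and 180 and 149 CPM in Flt3ITD, did not pass (adjusted p = 0.194). Of the 5, Kpna2 alone passed edgeR's test, the Ran cycle genes having adjusted p between 0.0604 and 0.0756 there. Ran, like Hspd1, has processed copies elsewhere in the genome, and how reads with several matches were counted is not given in the sources used here.

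As examples of abundant genes that rose, the promoters of Ran and Hspd1 are shown, which share the E-box CACGTG, the site read by Myc and related factors. Each is 300 bases, from 250 before to 50 after the gene start, from RefSeq on GRCm38.p6, with the E-box in capitals. The Ran promoter is chr5:129019906-129020205 on the plus strand with the E-box starting at -118, and the Hspd1 promoter is chr1:55088194-55088493 on the minus strand with the E-box at -80.
Ran: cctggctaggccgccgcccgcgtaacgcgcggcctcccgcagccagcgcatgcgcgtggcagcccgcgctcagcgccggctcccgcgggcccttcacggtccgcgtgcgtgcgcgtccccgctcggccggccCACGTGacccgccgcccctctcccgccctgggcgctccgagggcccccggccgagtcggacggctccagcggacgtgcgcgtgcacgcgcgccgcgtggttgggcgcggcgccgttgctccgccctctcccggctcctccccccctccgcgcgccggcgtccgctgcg
Hspd1: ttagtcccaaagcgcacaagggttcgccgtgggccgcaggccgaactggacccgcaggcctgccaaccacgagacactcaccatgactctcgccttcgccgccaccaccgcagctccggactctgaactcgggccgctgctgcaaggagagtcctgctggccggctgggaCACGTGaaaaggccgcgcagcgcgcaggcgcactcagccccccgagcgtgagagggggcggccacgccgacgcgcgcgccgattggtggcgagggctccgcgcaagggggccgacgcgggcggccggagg
A promoter was at hand for 9963 of the 12343 genes, and 10.5% of these held CACGTG, which reads the same on both strands. Among the genes that rose 222 of 268 had a promoter, and 30 of them, 13.5%, held it. The ETS core CCGGAAG, searched on both strands, was in 18.8% of all promoters and 18% of those of genes that rose. These shares describe letters in a window and do not show binding.

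In the lists of folate, pyrimidine and polyamine enzymes 5 genes rose, none fell and most did not pass. Mthfd1, the trifunctional enzyme that supplies folate-bound units to purine and thymidylate synthesis, was at 125 and 94.2 CPM in Mx and at 304 and 309 CPM in Flt3ITD (log2 fold change 1.49, SE 0.18, adjusted p = 0.00845). Fpgs, which keeps folates in the cell by adding glutamates, was at 27.6 and 26.6 CPM and at 71.6 and 58.2 CPM (1.22, SE 0.22, adjusted p = 0.0257). They are the 2 rises among 26 serine, glycine and folate genes, 7.69% against 2.17% of all genes. None of the 26 fell and their median was 0.36. The mitochondrial folate enzyme gene Mthfd2 had a log2 fold change of 1.04 and the serine synthesis gene Phgdh of 0.40, and neither passed (adjusted p = 0.103 and 0.259). In pyrimidine metabolism Cad, which catalyses the opening steps of synthesis, was at 54.1 and 42.9 CPM in Mx and at 110 and 105 CPM in Flt3ITD (1.14, SE 0.19, adjusted p = 0.0217). Uck2, a uridine and cytidine kinase of the salvage route, rose by 1.30. Cad and Uck2 are the 2 rises among the 23 genes of the list, 8.7%, and none fell. Srm, spermidine synthase, was at 68.4 and 90.7 CPM in Mx and at 285 and 221 CPM in Flt3ITD (1.66, SE 0.21, adjusted p = 0.00934). It was the only call among 18 polyamine genes, 5.56%. Odc1, the enzyme before it, overlapped between the groups at 102 and 130 CPM and 83.1 and 145 CPM (adjusted p = 0.909). Mthfd1, Fpgs, Cad and Srm also passed edgeR's test, and Uck2 did not (adjusted p = 0.075).

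The machinery of RNA and protein synthesis gave fewer calls with medians above that of all genes. Of 94 spliceosome genes 5 rose, 5.32% against 2.17% of all genes, and none fell, with a median of 0.34 and 80 members above 0. Lsm4, a subunit of the ring that binds U6 RNA, was at 33.2 and 49.2 CPM in Mx and at 112 and 93.5 CPM in Flt3ITD (log2 fold change 1.32, SE 0.23, adjusted p = 0.0242). The helicase gene Ddx39 rose by 0.90, the U2 component gene Sf3b5 by 1.0 and the U1 component gene Snrpc by 0.90. Of 65 translation factor genes 3 rose, 4.62% (median 0.26). Eif6, which keeps ribosomal subunits apart, was at 94.9 and 72.6 CPM in Mx and at 156 and 152 CPM in Flt3ITD, and Eif3g at 127 and 108 CPM and at 212 and 217 CPM. The remaining one is the Y-linked gene Eif2s3y, at 20.6 and 18.5 CPM and at 70.1 and 37.8 CPM, for which sex and genotype cannot be told apart. The Y-linked genes Ddx3y, Uty and Kdm5d had log2 fold changes of 0.99, 1.18 and 1.17 and did not pass (limma adjusted p = 0.106, 0.202 and 0.184). Of 23 cytosolic tRNA synthetase genes 1 rose (4.35%), Hars, the histidine enzyme, by 0.84. Of the 23, 22 lay above 0 and the median was 0.43. Of 82 chaperone genes 1 rose and 1 fell, 1.22% each way. Hsph1, a partner of heat shock protein 70, rose (0.84). Dnajb9, a chaperone of the endoplasmic reticulum, fell from 155 and 132 CPM to 58.2 and 53.1 CPM (-1.34, SE 0.23, adjusted p = 0.0235). Metap2, which removes the initiator methionine from new proteins, was among the 10 most abundant rises, at 221 and 234 CPM in Mx and at 382 and 393 CPM in Flt3ITD (0.77, SE 0.15, adjusted p = 0.0355). Lsm4, Ddx39, Eif3g and Dnajb9 passed edgeR's test as well.

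**Figure D2:**
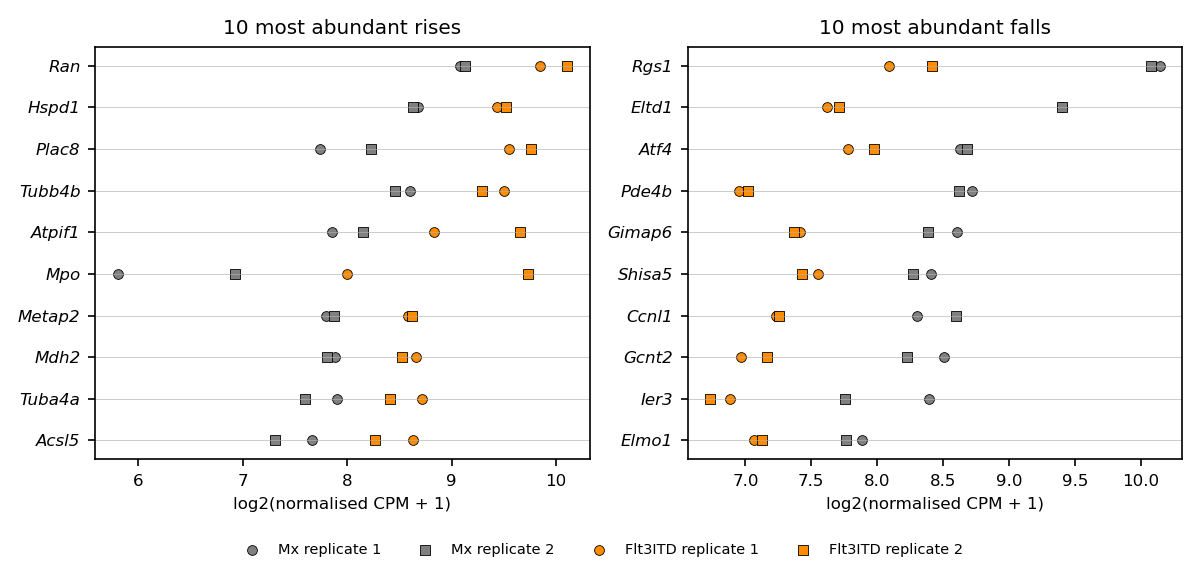
Points are the 4 libraries, Mx in grey and Flt3ITD in orange, for the 10 most abundant genes that rose and the 10 most abundant that fell outside the red cell, cell cycle and stem cell lists, on a log2(CPM + 1) axis. Ran and Hspd1 lead the rises and Rgs1 and Eltd1 the falls. For each gene the grey and orange points are apart, as the choice of named genes required.

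Outside the red cell, cell cycle and stem cell lists, the largest rise was that of Cx3cr1. Cx3cr1, the receptor of the chemokine fractalkine and a gene of monocytes, was at 0.487 and 0.565 CPM in Mx and at 22.3 and 17.8 CPM in Flt3ITD (log2 fold change 3.78, SE 0.51, adjusted p = 0.0115). AI427809 was listed at 0 in both Mx libraries and was at 9.39 and 5.89 CPM in Flt3ITD, at least 60.2-fold higher when Mx is set to 3 reads per library (adjusted p = 0.011). Rab44, a large Rab GTPase known from granule release in mouse mast cells, was at 10.3 and 10.7 CPM in Mx and at 86.9 and 55.1 CPM in Flt3ITD (2.61, SE 0.25, adjusted p = 0.00728). The Flt3ITD libraries of these 3 genes lay far above those of Mx, and Flt3ITD replicate 1 was the higher of the pair.

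In the matrix Emilin2, an elastin-interface glycoprotein, was at 16 and 19.1 CPM in Mx and at 137 and 77.6 CPM in Flt3ITD (log2 fold change 2.49, SE 0.28, adjusted p = 0.00773), and Col5a1, a fibrillar collagen chain, at 4.72 and 2.03 CPM and at 33.0 and 30.8 CPM (2.98, SE 0.52, adjusted p = 0.0244). In the cytoskeleton the actin-severing gene Scin was at 6.04 and 2.40 CPM in Mx and at 38.6 and 34.4 CPM in Flt3ITD (2.94, SE 0.38, adjusted p = 0.00993). Tubb3, a beta-tubulin best known from neurons, was at 0.487 and 2.03 CPM and at 15.2 and 15.9 CPM (2.97, SE 0.44, adjusted p = 0.0145). The abundant tubulins Tubb4b and Tuba4a rose by 0.87 and 0.81, which makes 3 rises and no fall among 105 tubulin, kinesin, dynein and cilium genes, 2.86% against 2.17%, with a list median of -0.19.

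Among enzymes and transporters, Alox5, the 5-lipoxygenase that starts leukotriene synthesis, was at 1.27 and 2.07 CPM in Mx and at 28.6 and 11.6 CPM in Flt3ITD (log2 fold change 2.87, SE 0.44, adjusted p = 0.0162). The gene of its activating protein, Alox5ap, did not overlap between the groups but did not pass, at 161 and 202 CPM and 111 and 148 CPM (adjusted p = 0.193). Pklr, the pyruvate kinase of liver and red cells, was at 4.31 and 4.29 CPM in Mx and at 31.1 and 34.4 CPM in Flt3ITD (2.67, SE 0.47, adjusted p = 0.0241). Hpn, a serine protease of the cell surface, was at 4.2 and 3.53 CPM and at 46.9 and 22 CPM, and Slc38a5, a glutamine and neutral amino acid carrier, at 4.72 and 5.51 CPM and at 51.8 and 30.3 CPM. Tmem56 and Smim1, the latter carrying the Vel blood group antigen in humans, rose by 3.04 and 2.93. Myeloid granule genes stand in the same group, with Mpo, myeloperoxidase, at 54.7 and 120 CPM in Mx and at 254 and 848 CPM in Flt3ITD, and Ctsg, cathepsin G, at 7.95 and 20.1 CPM and at 69.0 and 148 CPM. Both were highest in Flt3ITD replicate 2, the library with the highest summed neutrophil markers, whose part in these values was not tested. Of the 15 largest rises Tmem56, Col5a1, Pklr and Mpo did not pass edgeR's test, with adjusted p of 0.117, 0.0774, 0.117 and 0.0628.

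**Figure D3:**
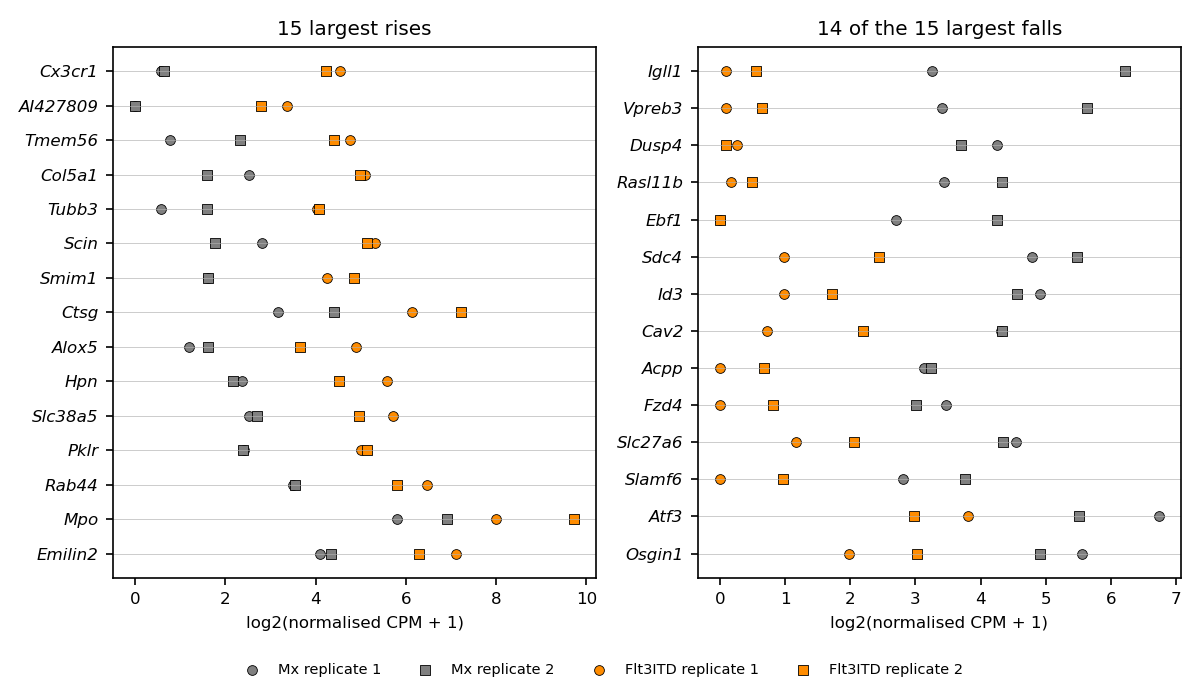
Points are the 4 libraries, Mx in grey and Flt3ITD in orange, circles for replicate 1 and squares for replicate 2, on a log2(CPM + 1) axis for the 15 largest rises and 14 of the 15 largest falls outside the red cell, cell cycle and stem cell lists. Among the genes shown Cx3cr1 heads the rises and Igll1 the falls, and the grey points of Igll1, Vpreb3 and Ebf1 are spread widely.

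Carriers of solutes and lipids changed in both directions. Of 32 ABC transporter genes 4 rose and none fell, 12.5%, while the median of the list was -0.03 and changed sign when single libraries were left out. Abcb4, which moves phosphatidylcholine across membranes, was at 8.96 and 10.4 CPM in Mx and at 39.2 and 39.3 CPM in Flt3ITD (log2 fold change 1.92, SE 0.45, adjusted p = 0.0491). Abcg4, a sterol exporter, was at 0.112 and 1.37 CPM and at 6.24 and 8.40 CPM (2.35, SE 0.46, adjusted p = 0.0341), and Abcf1, a translation-linked member that transports nothing, rose by 0.72. The remaining one, Abcb10, is on the red cell list. These 3 did not pass edgeR's test, with adjusted p of 0.0752, 0.19 and 0.0604. Of 216 solute carrier genes 6 rose and 6 fell, 2.78% each way, near the 2.17% higher and 2.50% lower over all genes. The lactate carrier gene Slc16a1 was at 84.1 and 91.2 CPM in Mx and at 163 and 165 CPM in Flt3ITD (0.89, SE 0.17, adjusted p = 0.0296), whereas its relative Slc16a12, a creatine carrier, fell from 12 and 14.7 CPM to 0.919 and 3.11 CPM (-2.35, SE 0.45, adjusted p = 0.0313) and the fatty acid carrier gene Slc27a6 from 22.3 and 19.4 CPM to 1.25 and 3.17 CPM (-2.83, SE 0.44, adjusted p = 0.0177). None of 21 amino acid transporter genes of the separate list passed in limma, and their values lay between -0.86 and 0.92. Of 133 phospholipid and sphingolipid genes 2 rose (1.5%) and 7 fell (5.26%). The acyl-CoA synthetase gene Acsl5 was at 201 and 158 CPM in Mx and at 394 and 307 CPM in Flt3ITD, and the phospholipase gene Pla2g12a at 5.62 and 10.04 CPM and at 28.2 and 39.3 CPM. On the falling side stood genes of ceramide and sphingomyelin turnover, with Sgms1, a sphingomyelin synthase, at 114 and 131 CPM and at 69.7 and 53.8 CPM, Smpdl3a at 124 and 134 CPM and at 69.5 and 60.9 CPM, and Asah1, acid ceramidase, at 123 and 120 CPM and at 62.0 and 74.0 CPM. Slc16a12, Acsl5, Sgms1 and Asah1 did not pass edgeR's test (adjusted p = 0.0739, 0.056, 0.053 and 0.0606).

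Rgs1 and Eltd1, both of G protein signalling, were the most abundant of the named falls. Rgs1, which switches off signalling by chemokine and other G protein-coupled receptors, was at 1129 and 1077 CPM in Mx and at 271 and 341 CPM in Flt3ITD (log2 fold change -1.86, SE 0.22, adjusted p = 0.00773). Eltd1, an adhesion-type G protein-coupled receptor known from vessels, was at 675 and 675 CPM and at 196 and 208 CPM (-1.74, SE 0.17, adjusted p = 0.00728). Replicates of each group lay close together in both genes, and the groups were far apart. S1pr1, the sphingosine 1-phosphate receptor that guides blood cells out of tissues, fell from 47.8 and 55.6 CPM to 20.9 and 19.5 CPM (-1.31, SE 0.27, adjusted p = 0.0367). Other receptors of the same class rose, Cnr2, the cannabinoid receptor of immune cells, from 6.00 and 8.06 CPM to 42.5 and 22.1 CPM (1.99, SE 0.38, adjusted p = 0.0313), and Gpr97 by 0.79. These are the 2 rises and 2 falls among 80 G protein-coupled receptors, 2.5% each way, near the 2.17% higher and 2.50% lower over all genes. Among 46 G protein subunits and regulators Gng11, a gamma subunit, fell by 1.88 and Gna14, an alpha subunit, rose by 1.92. In edgeR's test Gpr97, Gng11 and Gna14 did not pass (adjusted p = 0.0501, 0.0713 and 0.0646).

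In the list of cyclic AMP and CREB family genes the calls were lower, and of these only Pde4b acts on cyclic AMP itself. Of 63 cyclase, phosphodiesterase, kinase and CREB family genes 4 fell and none rose, 6.35% against 2.50% of all genes, with a median of -0.31. Pde4b, a phosphodiesterase that breaks down cyclic AMP, was at 420 and 392 CPM in Mx and at 123 and 129 CPM in Flt3ITD (log2 fold change -1.68, SE 0.22, adjusted p = 0.011). Pde9a, which is specific to cyclic GMP, was at 8.51 and 6.93 CPM and at 1.12 and 1.27 CPM (-1.99, SE 0.37, adjusted p = 0.0279). The other falls of the list are the transcription factor genes Atf3 and Atf4, which also belong to the amino acid and stress response. Atf4, which turns on amino acid synthesis and transport under stress, was at 394 and 410 CPM in Mx and at 219 and 251 CPM in Flt3ITD (-0.78, SE 0.18, adjusted p = 0.0467), and Atf3, which it induces, at 106 and 44.4 CPM and at 12.9 and 6.88 CPM (-2.73, SE 0.54, adjusted p = 0.033). Trib1, a pseudokinase adaptor of protein turnover, fell too (34.2 and 37.4 CPM, then 3.35 and 8.81 CPM, -2.49, adjusted p = 0.0186). So did Sgk1, a kinase induced by glucocorticoid (44 and 49.3 CPM, then 11.2 and 17.2 CPM, -1.68, adjusted p = 0.0237). With Atf3 and Atf4 they are the 4 falls among 31 nutrient-sensing and ATF4 response genes, 12.9%, with no rise. Atf3 and Atf4 are thus counted in both lists. Classical ATF4 targets did not pass, Asns, asparagine synthetase, having a log2 fold change of 0.60 and Psat1, of serine synthesis, 0.35 (adjusted p = 0.26 and 0.221). Atf3 was higher in replicate 1 of both groups, as was the handling-sensitive gene Fos, at 4767 and 1646 CPM in Mx and 3121 and 1695 CPM in Flt3ITD, which overlapped between the groups. The part of tissue handling in these falls was not tested. Pde9a and Atf4 did not pass edgeR's test (adjusted p = 0.0604 and 0.0736).

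Of the other most abundant falls, Gcnt2, a glycosyltransferase that branches sugar chains, was at 362 and 298 CPM in Mx and at 124 and 143 CPM in Flt3ITD (log2 fold change -1.30, SE 0.18, adjusted p = 0.0122), and Ier3, an early response gene of cell survival, at 336 and 215 CPM and at 117 and 105 CPM (-1.27, SE 0.23, adjusted p = 0.0257). Shisa5, a p53-induced gene of the endoplasmic reticulum, fell by 0.85. Ccnl1, a cyclin that acts in splicing, was at 315 and 386 CPM in Mx and at 149 and 152 CPM in Flt3ITD (log2 fold change -1.21, SE 0.17, adjusted p = 0.0137). Its promoter is shown with that of Plk2, a kinase gene with a larger fall that was chosen after its values were seen, at 86.5 and 78.5 CPM in Mx and 13.7 and 11.1 CPM in Flt3ITD (-2.65, SE 0.27, adjusted p = 0.00728). Both hold the cyclic AMP response element TGACGTCA, in capitals, which reads the same on both strands. The Plk2 promoter is chr13:110394794-110395093 on the plus strand with the element starting at -62, and the Ccnl1 promoter chr3:65958200-65958499 on the minus strand with the element at -18, both 300 bases from RefSeq on GRCm38.p6.
Plk2: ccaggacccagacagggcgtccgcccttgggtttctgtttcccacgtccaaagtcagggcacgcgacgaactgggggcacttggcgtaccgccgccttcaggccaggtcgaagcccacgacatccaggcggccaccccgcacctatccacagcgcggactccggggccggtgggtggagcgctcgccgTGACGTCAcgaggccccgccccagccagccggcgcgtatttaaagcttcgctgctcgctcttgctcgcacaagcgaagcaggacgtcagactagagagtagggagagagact
Ccnl1: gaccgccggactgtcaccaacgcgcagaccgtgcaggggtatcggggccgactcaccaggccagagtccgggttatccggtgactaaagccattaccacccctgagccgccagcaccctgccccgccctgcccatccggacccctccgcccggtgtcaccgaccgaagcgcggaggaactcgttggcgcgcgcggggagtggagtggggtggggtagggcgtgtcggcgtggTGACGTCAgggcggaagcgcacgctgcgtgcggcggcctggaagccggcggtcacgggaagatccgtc
The element was in 3.22% of the promoters at hand and in 0.901% of those of genes that rose. For the genes that fell the share is void, since only 245 of 308, or 79.5%, had a promoter, under the minimum of 80% set for such a check.

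Of 20 circadian genes 3 fell, 15% against 2.50% of all genes, none rose and 17 did not pass, with a median of -0.59. Per1, a repressor of the clock that also responds to glucocorticoid and cyclic AMP, was at 225 and 149 CPM in Mx and at 74.1 and 45.9 CPM in Flt3ITD (log2 fold change -1.63, SE 0.32, adjusted p = 0.0341). Bhlhe40, a repressor induced by many stimuli, was at 86.4 and 68.1 CPM and at 8.86 and 20.1 CPM (-2.43, SE 0.34, adjusted p = 0.0127), and Gm129, also called Ciart, a repressor of the clock's activators, at 9.19 and 9.33 CPM and at 1.58 and 2.79 CPM (-1.72, SE 0.37, adjusted p = 0.0415). The activators Arntl and Clock had log2 fold changes of -1.08 and -0.92 and did not pass (adjusted p = 0.169 and 0.118), and the outputs Nr1d1 and Dbp, at 0.15 and 0.40, overlapped between the groups. The labels give no hour of collection. Bhlhe40 passed edgeR's test, and Per1 and Gm129 did not (adjusted p = 0.0518 and 0.0743).

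The Wnt pathway genes that fell act in secretion, as a receptor, as an inhibitor and in the nucleus. Wls, which escorts Wnt proteins to the cell surface, was at 157 and 142 CPM in Mx and at 71.6 and 65.6 CPM in Flt3ITD (log2 fold change -1.11, SE 0.16, adjusted p = 0.0144). Fzd4, a Wnt and norrin receptor, was at 10.1 and 7.02 CPM in Mx, listed at 0 in Flt3ITD replicate 1 and at 0.760 CPM in replicate 2 (adjusted p = 0.0162). Sfrp1, a secreted Wnt inhibitor, fell from 12.6 and 6.69 CPM to 0.591 and 1.46 CPM (-2.37, SE 0.46, adjusted p = 0.0314). Tcf7, a nuclear effector that is also a T cell gene, went from 3.97 and 13 CPM to 0.131 and 0.697 CPM. These are the 4 falls among 32 Wnt genes, 12.5% against 2.50% of all genes, with no rise and a median of -0.30. Lef1, the relative of Tcf7, was at 3.15 and 29.4 CPM in Mx, mostly in replicate 2, where the B cell markers were also highest, and did not pass (adjusted p = 0.0633). Ctnnb1, beta-catenin, overlapped between the groups (adjusted p = 0.559). Wls and Tcf7 passed edgeR's test, and Fzd4 and Sfrp1 did not (adjusted p = 0.088 and 0.111).

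Among genes of cell contact and matrix more fell than rose, and most did not pass. Of 74 tetraspanin, claudin, junction and cadherin genes 6 fell (8.11%), 2 rose (2.7%) and 66 did not pass. Of 96 extracellular matrix, proteoglycan and serpin genes 6 fell (6.25%), 2 rose (2.08%) and 88 did not pass. Over all genes 2.50% fell and 2.17% rose. The rises of the matrix list were Emilin2 and Col5a1. F11r, the junctional adhesion molecule JAM-A, was at 89.9 and 101 CPM in Mx and at 29.6 and 35.0 CPM in Flt3ITD (log2 fold change -1.54, SE 0.21, adjusted p = 0.0122), and its relative Jam3, or JAM-C, at 15.5 and 21.2 CPM and at 4.73 and 3.83 CPM (-1.86, SE 0.35, adjusted p = 0.0293). The groups were far apart in both genes. Tspan3, a tetraspanin, was at 176 and 183 CPM in Mx and at 92.5 and 89.5 CPM in Flt3ITD, and the integrin ligand gene Icam1 at 62.7 and 63.0 CPM and at 24.8 and 21 CPM (-1.42, SE 0.21, adjusted p = 0.0151). Serpinf1, the secreted antiangiogenic factor PEDF, fell from 53.8 and 56.3 CPM to 14.2 and 16.5 CPM (-1.78, SE 0.24, adjusted p = 0.0114). Sdc4, a heparan sulphate proteoglycan of focal adhesions, fell from 26.6 and 43.7 CPM to 0.985 and 4.44 CPM (-3.42, SE 0.62, adjusted p = 0.0264), and the protease gene Adamts1 from 7.27 and 5.42 CPM to 0 and 0.665 CPM. Cav2, a caveolin of membrane pits, went from 19 and 19 CPM to 0.657 and 3.58 CPM (-2.86, SE 0.50, adjusted p = 0.0238). Sdc4, Adamts1 and Cav2 did not pass edgeR's test, with adjusted p of 0.0629, 0.183 and 0.0635, while F11r, Jam3, Tspan3, Icam1 and Serpinf1 did.

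Small GTPases and their regulators were among the named falls too. Rhof, a GTPase of filopodia, was at 98.3 and 88.6 CPM in Mx and at 36.3 and 32.8 CPM in Flt3ITD (log2 fold change -1.41, SE 0.21, adjusted p = 0.0151). Arhgef6, an exchange factor for Rac and Cdc42, was at 227 and 226 CPM and at 119 and 119 CPM (-0.92, SE 0.16, adjusted p = 0.0223). Elmo1, which with Dock proteins activates Rac in migration, was at 236 and 217 CPM and at 133 and 139 CPM (-0.73, SE 0.15, adjusted p = 0.0382). The Cdc42 exchange factor gene Fgd4 fell from 24.6 and 20.8 CPM to 2.49 and 6.81 CPM. Of 64 Ras and Rap genes 4 fell, 6.25% against 2.50% of all genes, and none rose. Among them Gem, a GTPase that inhibits calcium channels, fell from 59.6 and 65.5 CPM to 16.5 and 10.1 CPM (-2.19, SE 0.30, adjusted p = 0.0117). Rap1b, an activator of integrins, fell from 155 and 182 CPM to 92.8 and 101 CPM (-0.79, SE 0.18, adjusted p = 0.046). Rasl11b, a small GTPase of little known role, was at 9.82 and 19.1 CPM in Mx and at 0.131 and 0.412 CPM in Flt3ITD. In phosphoinositide signalling Plcb2, Plcg2 and Pik3cg, which act below G protein-coupled and immune receptors, fell by 0.89, 0.77 and 0.74. They are the 3 falls among 72 genes with no rise, 4.17% against 2.50% of all genes. For both directions together the share of all genes was 4.67%. Elmo1, Fgd4, Rap1b and the 3 phosphoinositide genes did not pass edgeR's test, with adjusted p between 0.0501 and 0.0658. The phosphoinositide genes have long transcripts, with a median of 4695 bases against 3353 bases over all genes, and length itself differed between the groups, as given further on.

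**Figure D4:**
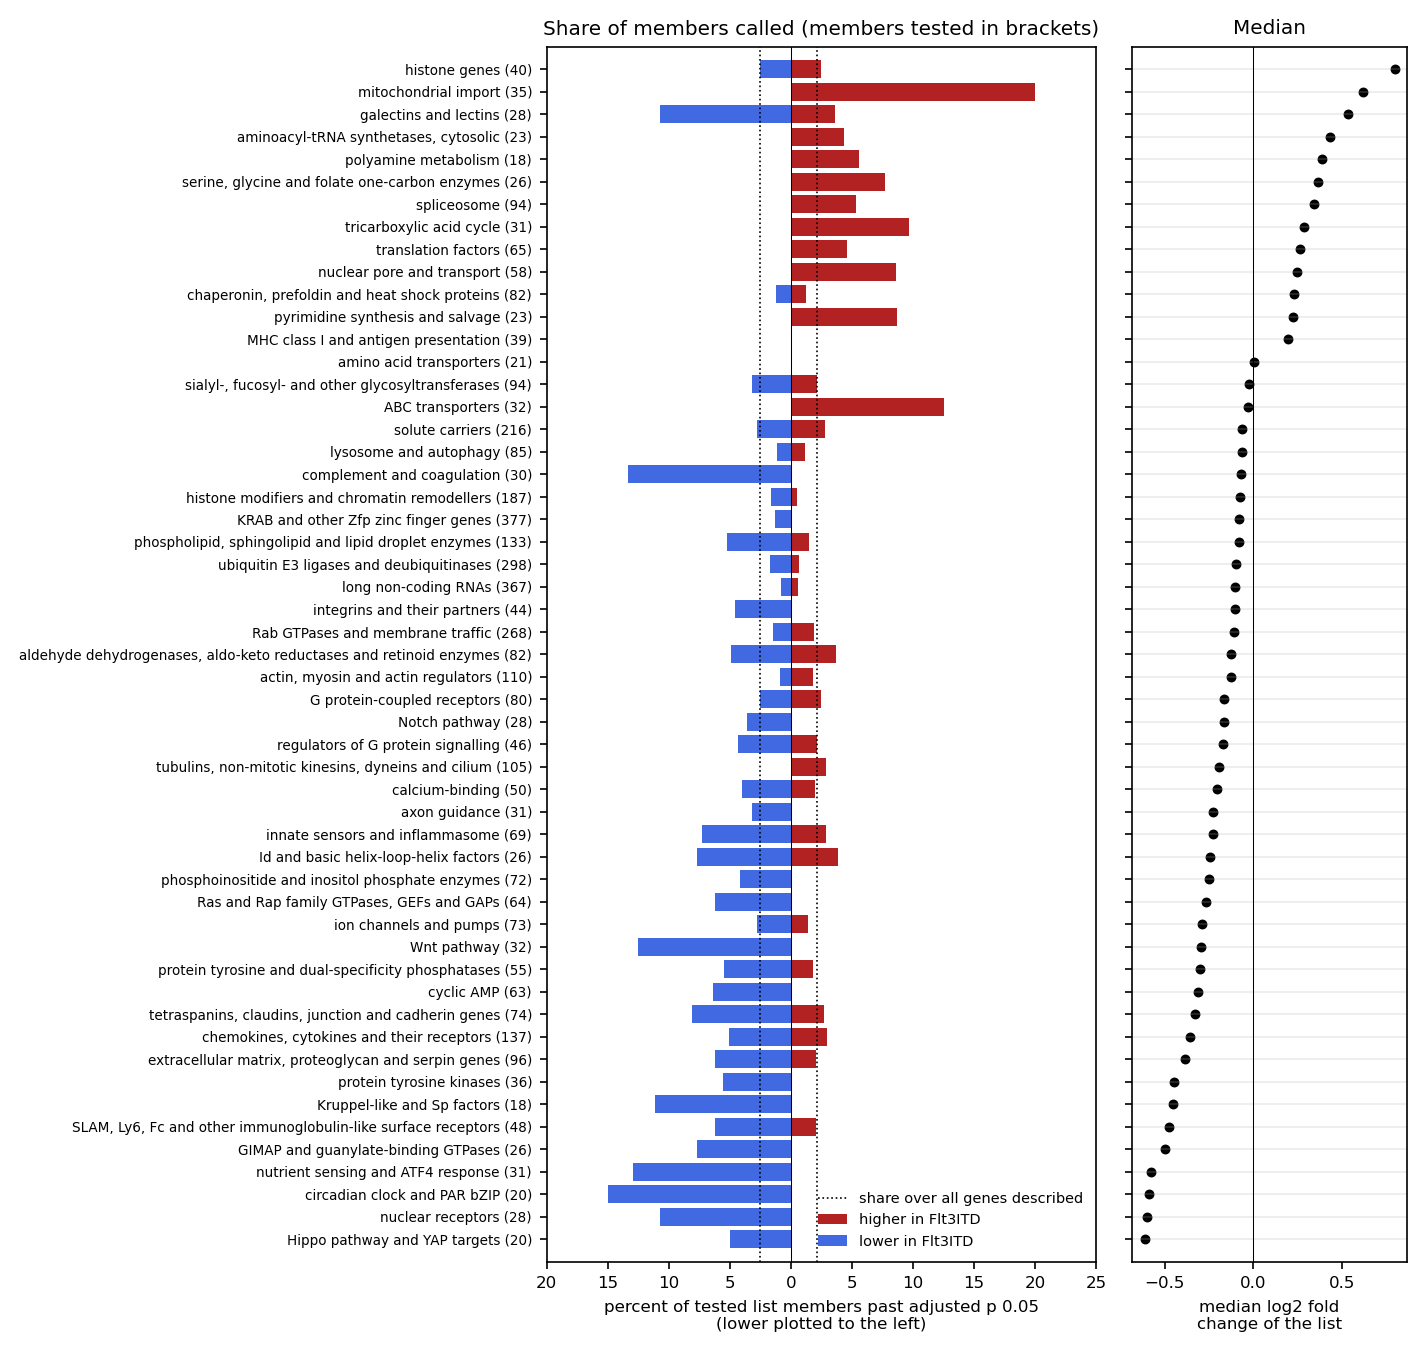
For each of 53 gene lists of the 55, bars give the percentage of its tested members that rose (right, red) or fell (left, blue) in Flt3ITD, dotted lines the same over all 12343 genes, and black points the median log2 fold change. Mitochondrial import has the longest red bar, at 20.0%, and the circadian list the longest blue bar, at 15%.

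Receptors and sensors of the immune system moved in both directions. Of 137 chemokine, cytokine and receptor genes 4 rose (2.92%) and 7 fell (5.11%), against 2.17% higher and 2.50% lower over all genes. The interleukin 1 receptor gene Il1r1 fell from 14.3 and 16.5 CPM to 2.56 and 4.47 CPM (log2 fold change -1.89, SE 0.37, adjusted p = 0.0318), whereas the related interleukin 33 receptor gene Il1rl1, a mast cell gene, rose from 5.74 and 2.73 CPM to 32.6 and 17.1 CPM (2.30, SE 0.44, adjusted p = 0.0311). Il1rl1 stands beside a higher sum of mast cell and basophil markers in Flt3ITD, which was mostly Cpa3. The part of mast cells and basophils in the rise of Il1rl1 was not tested. Pdgfd, a growth factor, fell from 10.7 and 8.81 CPM to 1.44 and 1.27 CPM. Of 69 innate sensor and inflammasome genes 5 fell (7.25%) and 2 rose (2.9%). Ddx58, or RIG-I, the sensor of viral RNA, was at 76.3 and 75.5 CPM in Mx and at 37.5 and 35.0 CPM in Flt3ITD (-1.05, SE 0.18, adjusted p = 0.0238). Casp12, an inflammatory caspase, fell by 1.20. The GTPase genes Gimap6 and Gimap8, of a family known from lymphocyte survival, fell by 1.11 and 1.18. Gimap6 went from 388 and 334 CPM to 170 and 164 CPM and Gimap8 from 50.9 and 49.3 CPM to 20.0 and 23.3 CPM. They are the 2 falls among 26 genes, 7.69%, with no rise. Of 36 protein tyrosine kinase genes 2 fell (5.56%). Axl, a receptor that takes part in clearing dead cells, fell from 13.8 and 19.2 CPM to 1.44 and 5.01 CPM (-2.17, SE 0.46, adjusted p = 0.0405). Fgfr1, a fibroblast growth factor receptor, fell from 11.2 and 11.7 CPM to 0.853 and 3.68 CPM (-2.08, SE 0.47, adjusted p = 0.046). Il1r1, Pdgfd, Axl and Fgfr1 did not pass edgeR's test (adjusted p = 0.0536, 0.0743, 0.0812 and 0.111). None of 39 genes of MHC class I and antigen presentation passed in limma, with values between -0.57 and 0.92.

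In the blood clotting and complement list 4 of 30 genes fell and none rose, 13.3% against 2.50% of all genes. The list median was -0.07 and changed sign without Mx replicate 1 (0.06). Tbxas1, which makes the platelet activator thromboxane, was at 179 and 192 CPM in Mx and at 79.7 and 71.1 CPM in Flt3ITD (log2 fold change -1.29, SE 0.22, adjusted p = 0.0237). Tfpi, the inhibitor of the tissue factor pathway, was at 44.2 and 49.0 CPM and at 14.7 and 18.9 CPM (-1.43, SE 0.25, adjusted p = 0.0255), and the complement protease gene C1ra at 21.3 and 20.9 CPM and at 8.80 and 6.5 CPM (-1.37, SE 0.31, adjusted p = 0.046). The remaining one, Procr, is an LT-HSC marker. Tbxas1 and Tfpi passed edgeR's test, and C1ra did not (adjusted p = 0.0591).

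Among the 15 largest falls, Igll1, Vpreb3 and Ebf1 are B lineage genes whose Mx level came mostly from replicate 2. All 9 tested B cell markers lay higher in both Mx libraries than in both Flt3ITD libraries, while 54.3% of all genes did not overlap, in either direction. Whether these reads came from LT-HSC or from other cells in the sort was not tested. Slamf6 and Acpp fell from 6.00 and 12.5 CPM and from 7.80 and 8.48 CPM to 0 in Flt3ITD replicate 1 and to 0.951 and 0.602 CPM in replicate 2. Osgin1, a growth inhibitor induced by oxidative stress, was at 46.1 and 29.0 CPM in Mx and at 2.95 and 7.16 CPM in Flt3ITD (log2 fold change -2.73, SE 0.47, adjusted p = 0.0238). Another gene of that response, Nqo1, a quinone reductase, moved the other way, from 12.9 and 14.8 CPM to 36.2 and 29.9 CPM (1.19, SE 0.25, adjusted p = 0.0404). Igll1, Slamf6 and Acpp did not pass edgeR's test (adjusted p = 0.068, 0.111 and 0.0813).

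Large regulatory families changed at or under the rate of all genes. Of 377 Zfp and related zinc finger genes 5 fell and none rose, 1.33% against 4.67% for both directions, although Zbtb10, a repressor of Sp factors, fell from 28.4 and 25.6 CPM to 4.79 and 4.47 CPM (log2 fold change -2.31, SE 0.29, adjusted p = 0.00939). Of 298 ubiquitin ligase and deubiquitinase genes 7 changed (2.35%), of 187 chromatin modifier genes 4 (2.14%) and of 268 Rab and membrane traffic genes 9 (3.36%). Among the chromatin genes the deacetylase gene Hdac7 rose from 37.9 and 44.5 CPM to 85.0 and 81.2 CPM (1.0, SE 0.18, adjusted p = 0.0279), while Smarca2, an ATPase of the BAF remodeller, fell by 0.85 and Jmjd1c by 0.84. The fourth, the demethylase gene Kdm6a, fell from 69.6 and 68.9 CPM to 23.2 and 33.4 CPM. It is X-linked and escapes X inactivation, so sex and genotype cannot be told apart for it. Of 367 long non-coding RNAs 5 changed (1.36%). Pvt1, the neighbour of Myc, was at 5.55 and 4.66 CPM in Mx and at 17.6 and 17.6 CPM in Flt3ITD (1.61, SE 0.38, adjusted p = 0.0491), and the imprinted Meg3 at 6.97 and 11.2 CPM and at 1.51 and 0.570 CPM (-2.31, SE 0.43, adjusted p = 0.029), neither passing edgeR's test (adjusted p = 0.075 and 0.0728). Smarca2 and Jmjd1c did not pass it either (0.0697 and 0.0628).

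Transcript length went with the direction of change. The longest annotated transcript had a median of 2373 bases for genes that rose, 4069 bases for genes that fell and 3353 bases for all 12343, of which 99.2% had a transcript in the annotation. Among the 3062 genes with the shortest transcripts, the lowest of 4 bins of equal size, 3.85% of genes rose and 1.27% fell, and in the bin of the longest transcripts 1.11% rose and 3.27% fell, while the median log2 fold change went from 0.22 through 0.07 and -0.04 to -0.20. In single libraries the tilt had opposite signs in Mx and Flt3ITD. It was measured against gene means over the 6 libraries, so it is not independent of the difference between the groups. The median deviation from the gene means in the shortest bin minus that in the longest was -0.25 and -0.16 in Mx and 0.14 and 0.25 in Flt3ITD on the log2 scale, and -0.10 and 0.08 in NPMc_Flt3ITD. The part of transcript length in the changes above was not tested. The 35 mitochondrial import genes had a median length of 2503 bases.

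**Figure D5:**
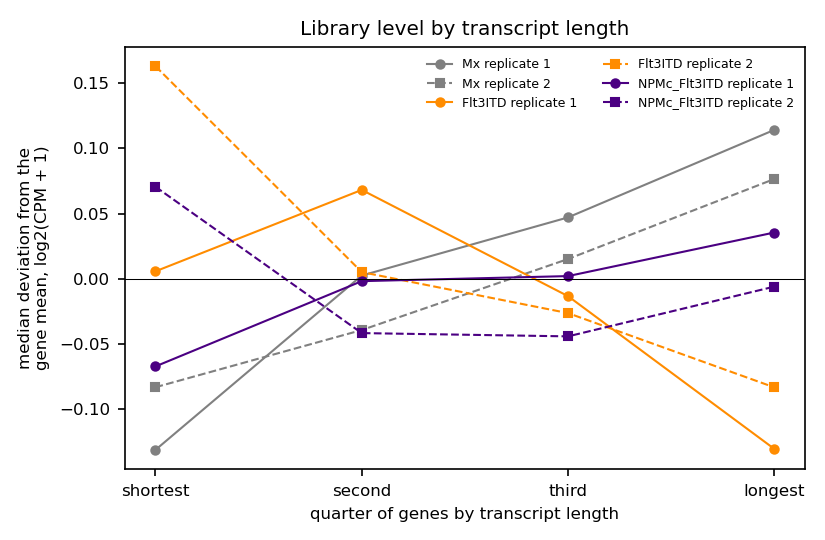
Lines give, for each of the 6 libraries, the median deviation from the gene mean in log2(CPM + 1) over 4 bins of genes by transcript length. Both Mx lines rise from the shortest to the longest bin and both Flt3ITD lines fall between these ends.

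Some of the changed genes lie side by side on a chromosome, in 33 pairs among 12290 genes placed. Of these pairs 21 changed in the same direction and 12 in opposite directions. Whether neighbours share a direction more often than other genes was not tested. Stx2, a syntaxin of membrane fusion, lies beside Ran and rose with it, from 18.1 and 24.7 CPM to 64.0 and 52.8 CPM (log2 fold change 1.41, SE 0.30, adjusted p = 0.0405). Evc and Evc2, whose proteins form a complex at the base of the primary cilium, are adjacent and both fell, Evc from 6.41 and 5.65 CPM to 0 and 1.17 CPM and Evc2 from 9.04 and 6.55 CPM to 0.0657 and 0.697 CPM (adjusted p = 0.0445 and 0.0171). None of these 3 passed edgeR's test (adjusted p = 0.0544, 0.251 and 0.0819). Reads from overlapping neighbours cannot be told apart where counting ignored strand, which is not given in the sources used here, and these pairs were chosen after their values were seen. On the X chromosome 18 of 435 genes changed, which is 4.14% against 4.67% of all genes. Of these, 2 were higher and 16 lower, against 268 higher and 308 lower over all genes. Sex and genotype cannot be told apart for X-linked genes here.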

How the data were processed

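Libraries from sorted LT-HSC were sequenced in 3 groups of 2. The deposited values are a signal, a normalised CPM from edgeR per the file headers, on the mouse build mm9. Per the submitters' processing notes, the tools include CASAVA 1.8, the pair TopHat2 2.1.0 and Bowtie2 2.2.4 as well as SAMtools 0.1.18, while edgeR 3.20.7 is listed along with HTSeq 0.6.1p1. The annotation, the strand setting and how multiply mapped reads were counted is information not given in the sources used here. All 107982 values, 100.0%, were whole multiples of the value of 1 read within 0.01 reads, so reads were recovered. The value of 1 read was 0.0375, 0.0471, 0.0657 and 0.0317 CPM in Mx replicates 1 and 2 and Flt3ITD replicates 1 and 2. SMARTseq reads carry no molecular identifiers, so the floor of 3 reads covers counting error only.

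limma 3.58.1 with an intensity trend in R 4.3.3 was applied to log2(CPM + 1), which understates the change of low genes. All 6 libraries entered 1 fit of 12657 genes with at least 1 CPM in 2 of 6 libraries, and p-values were adjusted over all of them by Benjamini-Hochberg. The fit had 3 residual degrees of freedom, 8.67 after moderation. The script was tested on simulated data. edgeR 4.0.16 and DESeq2 1.42.0 on recovered reads, other pseudocounts, filters, scaling, the replicate number as a block and leaving out each library were alternatives.

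The members and the 55 lists were chosen with earlier results of these data known. Some lists made from symbol patterns were narrowed after the table was seen, to drop unrelated genes. Named genes were those past the threshold without overlap, with at least 5 CPM in the higher group and outside the red cell, cell cycle and stem cell lists: the 15 largest rises and falls, the 10 most abundant of each, and up to 4 of smallest p per list, 174 with Flt3 and Npm1. A few of these genes, and the calls within 2 of the lists, are not reported here. Members that did not pass, marker genes, Plk2, Fos, Xist, the neighbour pairs and the genes of the closing observations were chosen after their values were seen. Transcript lengths are from GENCODE M21 and promoters from RefSeq, both on a later build than mm9, so no position of a measured gene is printed beyond its promoter. Npm1 was at 1239 and 1594 CPM in Mx and 1793 and 2336 CPM in Flt3ITD (limma adjusted p = 0.259).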

Additional observations from a re-analysis of the deposited data

How the results depend on the processing

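The count of 576 genes (268 higher, 308 lower) stayed within 1.5 times of itself with pseudocounts of 0.5 and 5 CPM, with filters of 1 CPM in 2 of the 4 libraries and of 5 CPM in 2 of 6, and after rescaling to library totals. Rescaling shifted the median of all genes by -0.11 and gave 28.9% higher among 629 calls against 46.5%. With only the 4 compared libraries in the fit 337 genes passed (154 higher, 183 lower), with edgeR 301 (138 and 163) and with DESeq2 1489 (752 and 737). With no filter on low values limma called 0 of 17997 genes (0 higher, 0 lower), while 3285 had an unadjusted p under 0.05. Leaving out single libraries gave between 0 and 316 calls, 0 to 147 higher and 0 to 178 lower, with 2053 at an unadjusted p under 0.05 in the fit with 0, which is without Mx replicate 1. A group left with 1 library is assumed to vary like the others. The labels do not say what a replicate number shares. With the number as a block 2341 genes passed (1302 higher, 1039 lower), and deviations of same-numbered Mx and Flt3ITD libraries correlated at 0.26 across genes. No named gene changed direction under any of the 16 alternatives. The called ones were chosen for libraries without overlap, which fixes their direction when a library is left out or the pseudocount changes. For those alternatives this is no test. Of the 172 called named genes 83 did not pass edgeR's test. Of 55 list medians, 2 changed sign after rescaling (amino acid transporters, -0.11, and fatty acid oxidation, -0.04), 2 under the 5 CPM filter (glycosyltransferases, 0.09, and ABC transporters, 0.08) and 2 to 4 without single libraries. With 2 libraries a group and 15618802 reads in the shallowest, low genes listed at 0 lie under a floor of 0.0951 to 0.197 CPM in Flt3ITD.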

Other observations

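Several enzymes of arginine and glutamine metabolism, chosen after their values were seen, were among the 576 genes. Ass1, which makes the precursor of arginine, was at 61.3 and 52.5 CPM in Mx and at 192 and 121 CPM in Flt3ITD (log2 fold change 1.41, limma adjusted p = 0.0216). Gatm, which uses arginine for creatine, was at 65.4 and 43.6 CPM and at 148 and 133 CPM (1.38, adjusted p = 0.0216), and Oat, which interconverts ornithine and glutamate, at 119 and 118 CPM and at 260 and 219 CPM (1.0, adjusted p = 0.0196). Glul, glutamine synthetase, went the other way, from 264 and 225 CPM to 129 and 91.4 CPM (-1.16, adjusted p = 0.0313). All 4 also passed edgeR's test.

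In sugar metabolism Taldo1 and Rpia, of the pentose phosphate route, were higher, at 163 and 155 CPM in Mx and 327 and 356 CPM in Flt3ITD (1.10, adjusted p = 0.0134) and at 12.9 and 13.2 CPM and 26.9 and 38.5 CPM (1.24, adjusted p = 0.0418). Ldhb, the lactate dehydrogenase subunit of oxidative tissues, was at 83.6 and 99.5 CPM and at 21.7 and 38.1 CPM (-1.63, adjusted p = 0.0216), and Pygm, a glycogen phosphorylase, at 33.2 and 30.2 CPM and at 9.78 and 10.5 CPM (-1.56, adjusted p = 0.0242). Gas6, the ligand of Axl, was at 13.6 and 11.7 CPM and at 0.788 and 1.71 CPM (-2.63, adjusted p = 0.0181), so both the ligand and the receptor gene were lower. Steap3, a ferric reductase, was at 27.4 and 16.9 CPM and at 141 and 86.2 CPM (2.30, adjusted p = 0.011), and the prohibitin genes Phb and Phb2, of the inner mitochondrial membrane, were higher by 0.97 and 1.04 (adjusted p = 0.0255 and 0.0145). Tiparp, a target of the aryl hydrocarbon receptor, was at 111 and 125 CPM and at 23.5 and 17.6 CPM (-2.48, adjusted p = 0.00728), 1 of the smallest adjusted p of the comparison.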
